A study of Oryctolagus cuniculus with 16 samples.

Results

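The genes described here are the many-exon genes of the rabbit annotation: those with 60 or more annotated exon entries, outside the mitochondrial chromosome and outside 1 stretch of chromosome 12, whose genomic span is shorter than 400000 bp. An exon entry is 1 exon record of the deposited annotation, counted over all transcripts of a gene. The rule used no expression value, and it picked 129 of the 23669 genes in the files. A further 13 genes with 60 or more entries were left out for their span and 1 for its place on chromosome 12. The 23489 genes with fewer than 60 entries, mitochondrial genes left out, served for comparison.

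In most animals a gene's exons are joined by splicing into 1 messenger RNA, and an exon that is shared by several transcripts is listed once for each of them in an annotation. Genes with very many exons typically code for very large proteins built from repeated domains, such as motor proteins, linkers of the cytoskeleton, matrix proteins, giant receptors and ubiquitin ligases. Microglia (the immune cells that live in the brain) and oligodendrocyte progenitor cells (OPC, which mature into myelin-forming cells) depend on such proteins for transport, adhesion and shape. A long transcript also gives more sequencing fragments per molecule than a short one, so levels of single genes were set side by side as CPM (counts scaled to a common library size) per kb of gene length. Detection and the expression bins used CPM with no length scaling, on which a long gene stands higher than a short one with as many molecules.

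RNA was sequenced from cells sorted by flow cytometry from brains of New Zealand rabbit kits, all born premature and all with moderate to severe intraventricular haemorrhage. Each kit was given an adenovirus into a brain ventricle. Ad-PPARg carried the nuclear receptor PPARg together with green fluorescent protein under the CMV promoter, which is active in many cell types, and Ad-GFP, the vector control, carried green fluorescent protein alone. The 4 groups, 4 libraries each, were microglia (CD11b-positive, CD45-low) after Ad-PPARg, microglia after Ad-GFP, O4-positive OPC after Ad-PPARg and OPC after Ad-GFP, all sorted at day 7. The 16 libraries came from 10 animals, of which 6 gave both cell types, and neither kits without haemorrhage nor kits without virus are among them. The animal identifiers start with 1 of 6 prefixes, and each prefix occurs with 1 treatment only (3 prefixes each), so that treatment and whatever the prefix marks cannot be told apart. In every group some libraries share a prefix, and those of OPC after Ad-GFP carry K195 and K198 alone.

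Total counts were 6.24 to 17.6 M per library. One library stood apart: microglia Ad-PPARg replicate 1, the smallest of all, had 3.77% of its counts on single-exon genes shorter than 300 bp, against 0.341 to 0.664% in the other 15. Mitochondrial genes downstream of position 7000 summed to 51.1 to 107 CPM in 5 libraries (microglia Ad-PPARg replicates 1 and 2, microglia Ad-GFP replicate 1, OPC Ad-PPARg replicates 1 and 4) and to 8711 to 19510 CPM in the others. These 5 are all the libraries of prefixes K188, K193 and K196, and the others are those of K195, K197 and K198. In OPC the low libraries were found after Ad-PPARg only. Whether this split bears on the treatment comparisons was not tested. No identifier in the files matched the gene table used here, so that the sorts were not checked against named marker genes, the level of PPARg itself was not examined, and single genes are given by identifier or position with no statement of their function. Coordinates are those of the deposited annotation. In bulk RNA of this kind, fewer cells of a type and less RNA per cell cannot be told apart.

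The 129 genes fall into 2 structural kinds. Their exon entries ranged from 60 to 282 (median 74, against 5 in the genes with fewer entries), and their summed exon length from 1717 to 93396 bp (median 9765 bp, against 1270 bp). When overlapping entries were merged, 81 genes still had 60 or more separate exons, with a median length of 12722 bp. In the other 48, enough entries overlapped, as those of alternative transcripts do, to leave 20 to 57 merged exons (median 39.5), and the median length was 6034 bp. In 73 of the 129 genes every entry was a separate exon. The genes were spread over 22 chromosomes, with 111 placed there and 18 on unplaced scaffolds. Chromosome 17 held the most (11), chromosome X held 5, and 69 lay on the plus and 60 on the minus strand. The span of 43 overlapped that of another gene, in 18 cases on the same strand, and reads of such overlaps may have been shared or lost in counting.

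**Figure D1:**
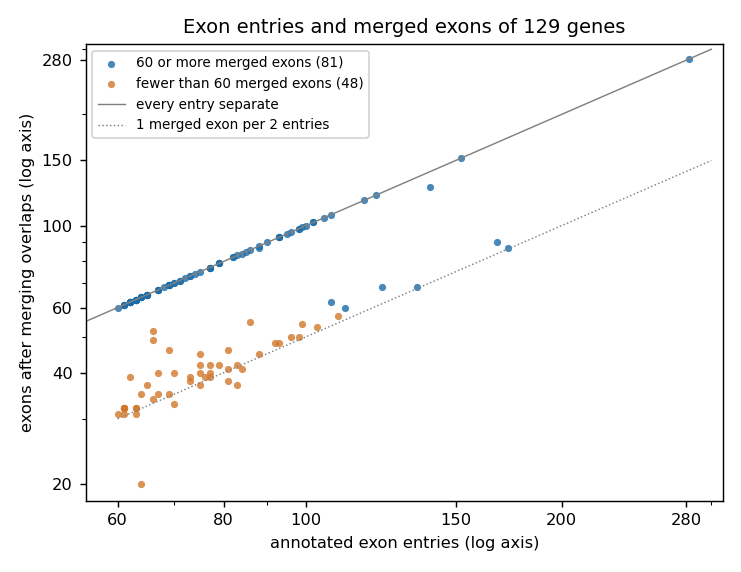
Exons left after merging overlapping entries (vertical, log axis) against annotated exon entries (horizontal, log axis), 1 point per gene for the 129 genes; the solid line marks genes whose entries are all separate and the dotted line 1 merged exon per 2 entries. A large group lies on the solid line (73 genes), and most of the 48 genes with fewer than 60 merged exons lie near the dotted line.

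The gene with the most exons was chr7:118225491-118453579 (minus strand), whose 282 entries are all separate and sum to 93396 bp. It was a microglial gene, at 188.5 ± 114 CPM in microglia and 7.12 ± 5.59 CPM in OPC (SD, n = 8 each). Its microglia libraries ranged from 96.4 to 460 CPM (median 161) and its OPC libraries from 3.44 to 16.6 CPM (median 4.28), without overlap. The difference was 25.3-fold (log2 OPC minus microglia -4.66, SE 0.44, edgeR adjusted p = 9.13e-08). Next in exon entries were chr19:11364874-11484824 (173 entries, 87 merged, minus strand) and chr3:62300679-62473421 (168 entries, 90 merged, minus strand). The first of them was at 17.5 ± 13.3 CPM in microglia and 10.6 ± 5.73 CPM in OPC, and did not pass the test (log2 -0.66, SE 0.39, edgeR adjusted p = 0.148). The other was close to level between the cell types, at 69.4 ± 13.0 and 72.5 ± 7.17 CPM (log2 0.06, SE 0.12, edgeR adjusted p = 0.645).

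Most many-exon genes were expressed in both cell types. At least 1 CPM in all 8 libraries was reached in both sorts by 102 of the 129 genes (79.1%), in microglia alone by 5, in OPC alone by 5, and in neither by 17. Of the 23489 genes with fewer exon entries, 43.3% reached it in both sorts and 46.8% in neither. Genes closer in length or exon number had shares near those of the many-exon genes. Both sorts were reached by 81.8% of the 88 genes with fewer entries but at least the median length of the 129, and by 78.4% of the 365 with 40 to 59 entries, and neither by 9.09% and 11.8%, against 13.2% of the 129. Per kb, the median gene of the 129 was at 4.69 CPM per kb in microglia (0.0622 to 386) and at 6.56 CPM per kb in OPC (0.0401 to 135), and that of genes with fewer entries at 1.23 and 1.55. Among genes that reached the detection level in the cell type the order was the opposite, with medians of 7.96 against 17.4 CPM per kb in microglia, for the 129 genes and those with fewer entries, and of 9.24 against 15.3 in OPC. A limit of 1 CPM asks for a higher level per kb of a short gene than of a long one. The long genes with fewer entries that reached it had medians of 7.15 and 7.94 CPM per kb. Genes with 60 or more merged exons and those with fewer had medians of 2.66 and 13.6 CPM per kb in microglia and of 4.90 and 11.7 in OPC, a difference that was not tested. Across the 129 genes, Spearman's rho between merged exons and CPM per kb was -0.29 in microglia and -0.21 in OPC. Length enters both sides of such a rank correlation, and it describes genes that share the same libraries.

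The 2 genes with the highest levels carried a large part of the counts, and both were higher in microglia. The gene at chr9:19565766-19591098 (plus strand, 69 separate exons, 8378 bp) stood at 386 ± 224 CPM per kb in microglia and 63.3 ± 24.9 in OPC (SD, n = 8 each), 5.603-fold apart (log2 -2.49, SE 0.33, edgeR adjusted p = 4.53e-06). Its libraries ranged from 1135 to 6835 CPM in microglia (median 2866) and from 142 to 750 CPM in OPC (median 623). The scaffold gene GL018714:307843-382725 (plus strand, 93 separate exons) stood at 291 ± 59.2 and 135 ± 36.8 CPM per kb, a difference of 2.16-fold (log2 -1.11, SE 0.19, edgeR adjusted p = 6.97e-05). In this gene the lowest microglia library, at 2463 CPM, lay below the highest OPC library, at 2480 CPM. Among the 3 highest in microglia was also chr19:47604776-47653068 (plus strand, 63 entries, 32 merged), at 283 ± 54.2 CPM per kb there and 12.1 ± 4.32 in OPC, 23.3-fold lower (log2 -4.54, SE 0.24, edgeR adjusted p = 1.00e-10). The gene at chr6:10693812-10753797 (minus strand, 63 entries, 31 merged) completed the highest 3 in OPC, at 67.5 ± 8.34 CPM per kb against 40.9 ± 4.38 in microglia. It was 1.65-fold higher in OPC (log2 0.72, SE 0.10, edgeR adjusted p = 5.28e-06), and its 8 OPC libraries, 242 to 340 CPM, all lay above its 8 microglia libraries, 142 to 201 CPM.

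**Figure D2:**
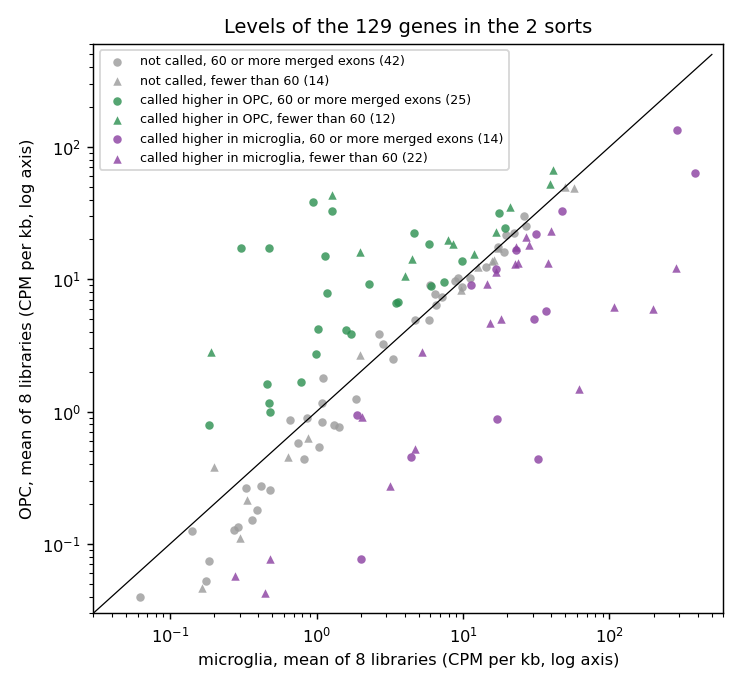
Mean level in OPC (vertical) against mean level in microglia (horizontal), both in CPM per kb on log axes, over 8 libraries each, for the 129 genes; colour gives the edgeR call at an adjusted p under 0.05, shape the number of merged exons, and the line equal levels. The 37 genes called higher in OPC and the 36 called higher in microglia lie on either side of the line, and the highest gene in microglia reaches 386 CPM per kb.

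The many-exon genes differed between the 2 cell types in both directions, with edgeR in like numbers. With edgeR, 37 of the 129 passed an adjusted p under 0.05 towards OPC (28.7%, against 35.1% of all 14699 genes tested) and 36 towards microglia (27.9%, against 33.4%). That is 56.6% called, against 68.5% of all genes, so the share called was not above that of genes in general. Among genes with fewer entries, weighted to the same expression bins, 73.9% were called. DESeq2 called 36 of the 129 towards OPC and 38 towards microglia, and 70.9% of all genes. Limma voom with sample quality weights called 52 and 41, and 79.6% of all genes. The median standard error of a log2 difference was 0.22 in the 129 genes and 0.20 in those with fewer entries, but it was not alike at the same expression. In bins 2 to 5 of 10, counted from the lowest, it was 0.83, 0.52, 0.40 and 0.35 in the many-exon genes and 0.42, 0.30, 0.20 and 0.17 in the others, and in bin 10 it was 0.14 and 0.15. Calls of at least 2-fold numbered 46 (35.7%, against 44% of all genes), and those of at least 16-fold numbered 12 (9.30%, against 10.7%). The 8 libraries of one sort lay wholly above the 8 of the other in 39 genes (30.2%, against 41% of all genes). OPC was the higher sort in 21 of the 129 (16.3%, against 20.6% of all genes) and microglia in 18 (14.0%, against 20.4%).

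The 4 genes described next were picked for the largest called differences in each direction among genes without overlap between the sorts. Their calls and their lack of overlap were thus set by this choice and are not findings. The largest difference towards OPC was in ENSOCUG00000011511 (GL018767:502443-565870, plus strand, 69 separate exons). Its microglia libraries lay between 1.35 and 4.38 CPM (median 2.63) and its OPC libraries between 33.2 and 220 CPM (median 171), a difference of 57.9-fold (log2 5.86, SE 0.42, edgeR adjusted p = 3.23e-09). OPC Ad-PPARg replicate 4 was the low OPC library at 33.2 CPM, and the other 7 were at 114 CPM or more. ENSOCUG00000014857 (GL018833:271672-309666, plus strand, 67 separate exons) ran from 1.25 to 10.5 CPM in microglia (median 5.68) and from 186 to 258 CPM in OPC (median 235). It was 40.5-fold higher in OPC (log2 5.34, SE 0.29, edgeR adjusted p = 1.16e-10), with a narrow spread among the OPC libraries. Towards microglia, ENSOCUG00000006243 (GL018819:594009-860542, plus strand, 62 separate exons) ran from 222 to 384 CPM there (median 346) and from 1.01 to 8.58 CPM in OPC (median 3.01). The difference was 76.9-fold (log2 -6.27, SE 0.42, edgeR adjusted p = 1.16e-09), the largest of the 129 genes in either direction. ENSOCUG00000008730 (chr17:84876012-85003953, minus strand, 73 entries, 39 merged) ran from 292 to 468 CPM in microglia (median 398) and from 4.11 to 15.6 CPM in OPC (median 8.48). It was 42.1-fold higher in microglia (log2 -5.40, SE 0.22, edgeR adjusted p = 8.35e-12).

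At the other end, 2 genes were nearly equal in the 2 sorts. The gene at chr13:133680611-133842737 (plus strand, 107 separate exons) was at 358 ± 48.3 CPM in microglia and 359 ± 39.1 CPM in OPC, with ranges of 255 to 399 and 299 to 408 CPM (log2 0.0043, SE 0.11, edgeR adjusted p = 0.975). The gene at chr19:11670528-11695252 (minus strand, 70 entries, 33 merged) was at 294 ± 43.3 and 295 ± 44.0 CPM, with ranges of 207 to 343 and 223 to 344 CPM (log2 0.0082, SE 0.12, edgeR adjusted p = 0.957). They were picked for their small difference, and the ranges of their libraries overlap almost fully.

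Set against genes of like expression, the many-exon genes showed no shift to either cell type that held for every way of matching. The median log2 difference, OPC minus microglia, was -0.20, against -0.0083 in genes with fewer entries. Relative to genes with fewer entries in the same of 10 expression bins it was 0.13, with quartiles of -0.99 and 0.87. It was -0.16 when bins were made on expression and gene length together, and -0.16 with bins on expression and genomic span. Of the 81 genes with 60 or more merged exons, 25 were called higher in OPC (30.9%, against 35.1% of all genes) and 14 in microglia (17.3%, against 33.4%). Of the 48 with fewer merged exons, 12 (25%) and 22 (45.8%) were. The median log2 differences of the 2 kinds were 0.0043 and -0.38. Relative to the expression bin they were 0.27 and -0.20, and with bins on expression and length -0.052 and -0.32. The difference between the kinds was not tested, and upper-quartile scaling moved the median of all genes by more than 0.1 (from -0.0097 to 0.19) and that of the 129 genes to -0.013. On that scaling 41 were called higher in OPC (31.8%, against 41.7% of all genes) and 28 in microglia (21.7%, against 28.8%), so the shares of all genes shifted in the same directions.

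Just around the limit of 60 entries, the 5 genes with 58 entries had levels of 0.196 to 35.6 CPM per kb in microglia and 0.200 to 24.5 in OPC, and the 5 with 59 entries had 0.836 to 14.7 and 0.714 to 29.96. Just inside it, the 2 genes with 60 entries had 11.1 and 15.4 CPM per kb in microglia and, in the same order, 10.3 and 4.65 in OPC. The 8 with 61 entries had 0.779 to 57.3 and 1.67 to 52.9.

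The first treatment comparison sets microglia of kits given Ad-PPARg against those of kits given Ad-GFP. No many-exon gene passed the test, but most had higher fitted levels after Ad-PPARg. With edgeR, 0 of the 119 genes tested had an adjusted p under 0.05 (0% of all 13041 genes tested), and the lowest adjusted p among them was 0.409. At an unadjusted p under 0.05 there were 10 (8.40%, against 11.4% of all genes), 8 of them higher (6.72%, against 4.87%) and 2 lower (1.68%, against 6.54%). DESeq2 called 4 of the 119, 2 higher and 2 lower, and among all genes tested it called 0.928%. With limma voom and sample quality weights, 10 of the 119 were called, 8 higher and 2 lower, and 9.9% of all genes. Fitted differences were positive in 98 of 119 genes (82.4%), against 53.4% of the genes with fewer entries and 50.2% of those when weighted to the same expression bins. The median log2 difference was 0.19, against 0.025 in the genes with fewer entries, and it was 0.21 relative to the expression bin (quartiles 0.067 and 0.47). The 119 genes share their 8 libraries, so this count describes those libraries and is not a test over genes.

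Positive differences made up the larger part of both structural kinds. Of the 76 tested genes with 60 or more merged exons, 69 were positive, with a median log2 difference of 0.28, and of the 43 with fewer merged exons, 29 were, with a median of 0.14. Genes outside the rule shared the direction. Of the 82 tested genes with fewer entries but at least the median length of the 129 genes, 64 were positive with a median of 0.18. Of the 334 with 40 to 59 entries, 222 were positive with a median of 0.11. All 13 genes left out for a span of 400000 bp or more were positive, with a median of 0.63. Matched on expression and length together, the median of the 119 genes was 0.12, and matched on expression and span it was 0.14. Across the 119 genes, Spearman's rho of the log2 difference was 0.30 with merged exons and 0.27 with gene length, as a description of genes that share the same libraries.

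**Figure D3:**
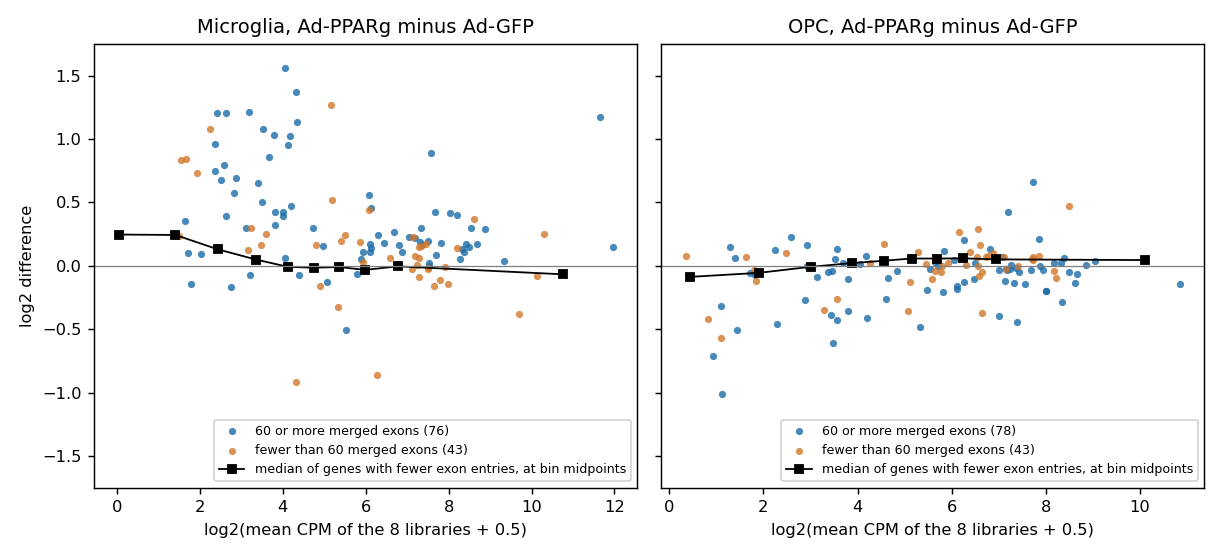
Fitted log2 difference, Ad-PPARg minus Ad-GFP (vertical), against log2 of the mean CPM plus 0.5 (horizontal), in microglia (left, 119 genes) and OPC (right, 121 genes); points are many-exon genes by number of merged exons, and squares the median of genes with fewer entries at the midpoint of each expression bin. In microglia 98 of 119 points lie above 0, and in OPC 52 of 121 do.

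Positive medians were found over the whole range of expression. In bins 2 to 5 of 10, counted from the lowest, with 9 to 15 many-exon genes each, their medians were 0.36 to 0.71, and those of genes with fewer entries were -0.0071 to 0.24. In bins 6 to 10, with 6 to 31 genes each, their medians were 0.050 to 0.16, against -0.066 to -0.0036. The lowest bin held 0 of them, and most bins hold too few to rank. The median SE in bins 2 to 5 was 0.51 to 0.68 in the many-exon genes, against 0.17 to 0.49 in the others. Positive differences were also the majority whichever cell type a gene was higher in. They were found in 30 of 37 genes called higher in OPC (median 0.20), in 27 of 36 called higher in microglia (median 0.16) and in 41 of 46 that were called in neither direction (median 0.19).

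Single libraries moved these values. The level of the many-exon genes in a library was taken as the median over them of the log2 CPM minus the gene's mean in that cell type, relative to genes with fewer entries in the same expression bin. It was 0.42, -0.030, 0.083 and -0.048 in microglia Ad-PPARg replicates 1 to 4, and -0.19, -0.067, -0.21 and 0.16 in Ad-GFP replicates 1 to 4. The groups overlapped, with Ad-PPARg replicate 1 the highest of the 8 and Ad-GFP replicate 4 next to it. They are also the smallest microglia libraries, at 6.24 and 6.64 M counts. The lowest, Ad-GFP replicate 3, is the largest, at 17.6 M. In OPC the smallest library, Ad-GFP replicate 4 at 6.56 M, was at 0.059. The part of library size in these levels was not tested. In genes with 60 or more merged exons microglia Ad-PPARg replicate 1 reached 0.59, and the long genes with fewer entries were at 0.35 in the same library. This is also the library with 3.77% of counts on short single-exon genes. Without it, 74 of 119 genes (62.2%) were positive and the median fell from 0.19 to 0.12, or from 0.21 to 0.11 relative to the bin. Without Ad-GFP replicate 4 the median was 0.32. Genes at least 16-fold higher in OPC, 737 genes that are not among the 129, took up 0.225 to 0.490% of counts in the microglia Ad-PPARg libraries and 0.100 to 0.333% in the Ad-GFP libraries. Those ranges overlap, and their part in the result was not tested.

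**Figure D4:**
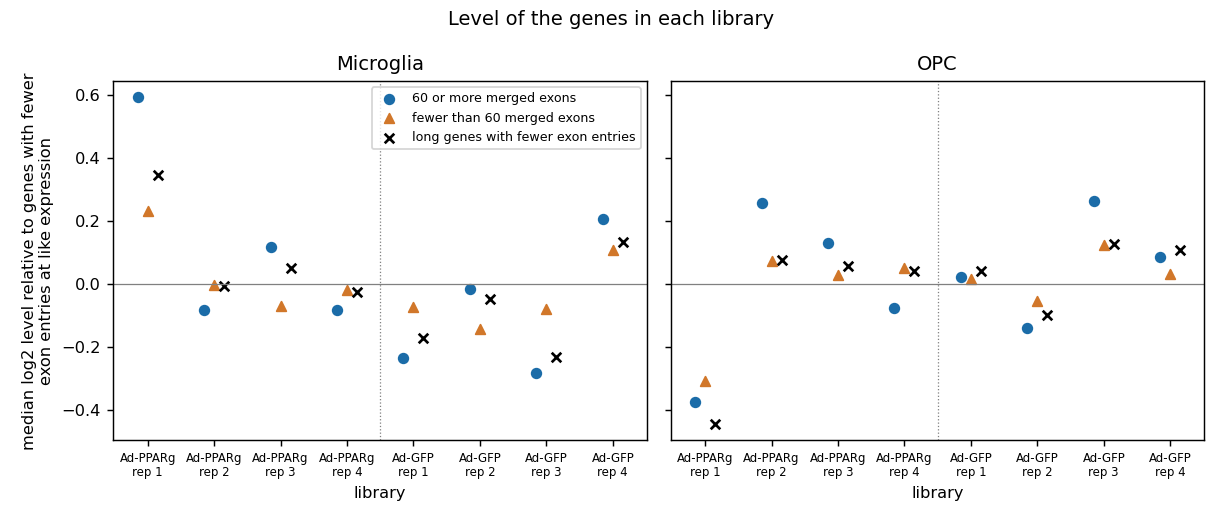
Level in each library (vertical: median log2 level relative to genes with fewer exon entries in the same expression bin, 0 meaning the mean of the cell type) for genes with 60 or more merged exons, genes with fewer merged exons and long genes with fewer exon entries, by library (horizontal) in microglia and OPC. Microglia Ad-PPARg replicate 1 is the highest library (0.59 for genes with 60 or more merged exons) and OPC Ad-PPARg replicate 1 the lowest (-0.37).

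As a share of all counts, the 129 genes took up 2.36, 1.91, 2.19 and 1.94% in the microglia Ad-PPARg libraries and 1.64, 1.32, 1.49 and 2.12% in the Ad-GFP libraries. The means were 2.10% ± 0.215 and 1.64% ± 0.342 (SD, n = 4 each), and Ad-GFP replicate 4 lay within the Ad-PPARg range. With the 2 highest genes left out, the means were 1.35 and 1.17%. The gene at chr9:19565766-19591098 alone stood at 4369, 2086, 5603 and 3005 CPM after Ad-PPARg and at 1533, 952, 1417 and 2760 CPM after Ad-GFP (CPM scaled within microglia, as for all single-gene treatment values). These 2 groups overlap, and the difference of 2.26-fold did not pass (log2 1.18, SE 0.37, edgeR adjusted p = 0.409).

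Of the single genes, the 2 lowest in p among those higher after Ad-PPARg were ENSOCUG00000011683 and ENSOCUG00000010205. ENSOCUG00000011683 (GL018706:1445240-1527031, plus strand, 93 entries, 48 merged, overlapping another gene on its strand) was at 58.6, 31.7, 35.3 and 41.5 CPM after Ad-PPARg and at 15.6, 14.1, 14.99 and 25.02 CPM after Ad-GFP. All 4 treated libraries lay above the controls. The difference was 2.41-fold (log2 1.27, SE 0.24, edgeR adjusted p = 0.409), and in OPC the fitted log2 difference of this gene was 0.024. ENSOCUG00000010205 (chr11:38536981-38713380, minus strand, 62 separate exons) was at 26.0, 15.4, 28.5 and 20.7 CPM after Ad-PPARg and at 5.23, 15.8, 7.55 and 12.8 CPM after Ad-GFP. The groups overlap in 1 library each, and the difference was 2.19-fold (log2 1.13, SE 0.34, edgeR adjusted p = 0.409).

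Among those lower after Ad-PPARg, ENSOCUG00000015835 (chr17:13142387-13277239, plus strand, 60 entries, 31 merged) was at 46.1, 55.3, 33.3 and 46.8 CPM against 106, 68.0, 78.7 and 77.9 CPM after Ad-GFP. The groups did not overlap, and the difference was 1.82-fold (log2 -0.86, SE 0.18, edgeR adjusted p = 0.409). ENSOCUG00000006035 (chr12:97166152-97317193, plus strand, 67 entries, 40 merged, overlapping another gene on its strand) was at 12.9, 14.1, 9.45 and 8.26 CPM against 28.8, 17.7, 18.5 and 19.4 CPM. Again no treated library reached the controls (log2 -0.92, SE 0.22, edgeR adjusted p = 0.409). These 2 were the only genes of the 119 whose treated libraries all lay below the controls, against 2.31% of all genes, and 3 had all treated libraries above them, against 1.84%. Together these are 4.202%, against 4.15% of all genes. The 3 were ENSOCUG00000011683, ENSOCUG00000008730 (log2 0.37, SE 0.12) and the gene at chr13:111787292-111938533 (68 separate exons, log2 0.30, SE 0.12), the last named after its values were seen. The 4 genes called by DESeq2 were ENSOCUG00000011683 and ENSOCUG00000008730, higher, and ENSOCUG00000015835 and ENSOCUG00000006035, lower.

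**Figure D5:**
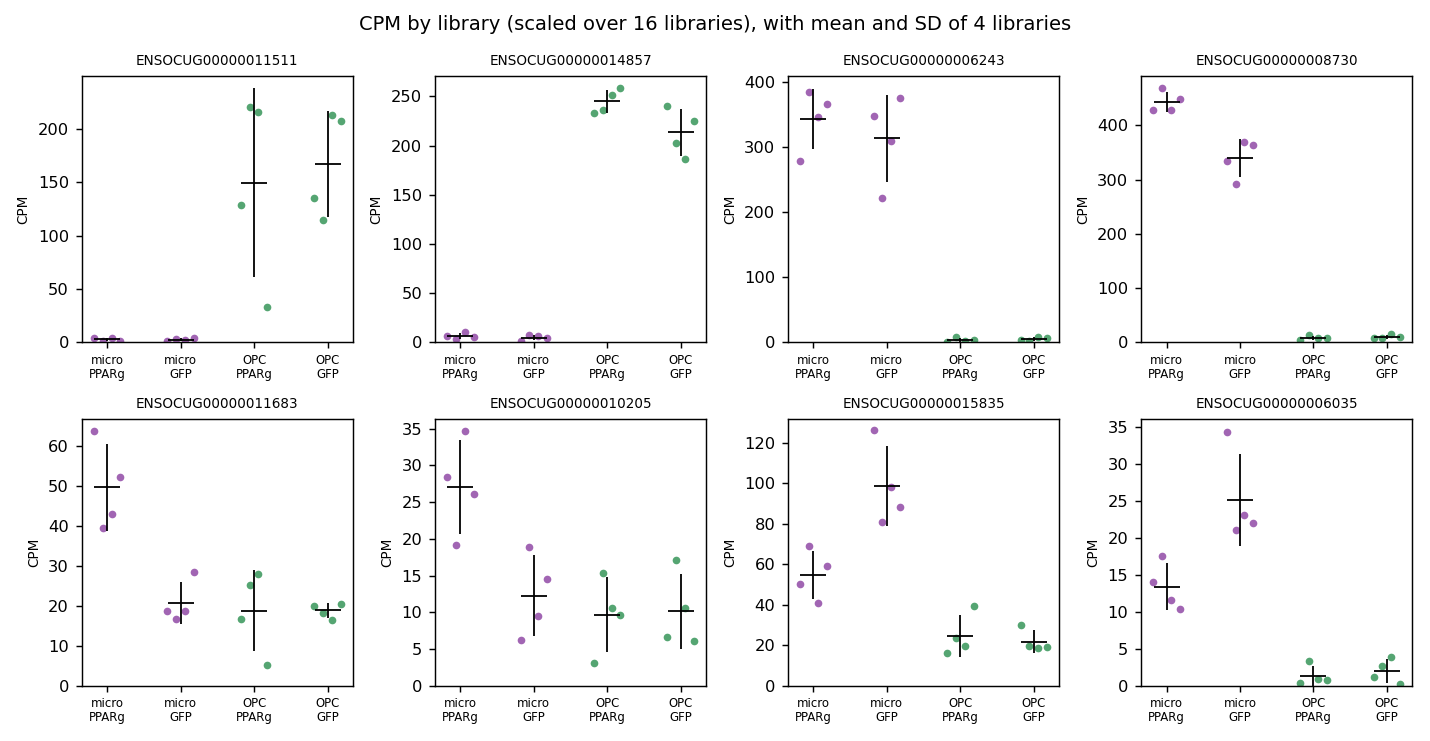
CPM in every library (points, vertical; scaled over all 16 libraries) with the mean and SD of 4 libraries (lines) in the 4 groups, for the 4 genes that differ most between cell types (upper) and the 4 lowest in p for treatment in microglia (lower); each panel has its own axis from 0. The upper panels show groups of libraries near 0 in one cell type, and in the lower panels the treated microglia libraries lie above or below all controls; in ENSOCUG00000010205 this is by 19.16 against 18.89 CPM and holds on this scaling but not on that within microglia.

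The other treatment comparison does the same for OPC, and there no many-exon gene passed the test. With edgeR, 0 of 121 genes tested had an adjusted p under 0.05 (0% of all 13492 genes), and 0 had an unadjusted p under 0.05, against 1.23% of all genes. DESeq2 called 0 of the 121 as well (0.0519% of all genes), and so did limma voom with sample weights (0.0667%). Fitted differences were positive in 52 of 121 genes (43.0%), against 57.8% of the genes with fewer entries and 60.6% of those when weighted to the same expression bins. The median log2 difference was -0.027, against 0.033 in those with fewer entries, and -0.065 relative to the expression bin. Of the tested genes with 60 or more merged exons 35.9% were positive, and of those with fewer merged exons 55.8%. Genes outside the rule were again alike in direction, with 37.6% positive among 85 long genes with fewer entries (median -0.025) and 38.5% among 335 genes with 40 to 59 entries (median -0.032). No gene had treated libraries wholly above or wholly below the controls, against 1.25% of all genes.

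Which side of 0 this median fell on depended on single libraries. OPC Ad-PPARg replicate 1, which comes from the same animal as the microglia library that stood apart, was the lowest OPC library, at -0.36 relative to the bin. The others after Ad-PPARg were at 0.18, 0.095 and -0.057, and those after Ad-GFP at 0.018, -0.090, 0.20 and 0.059. Without Ad-PPARg replicate 1, 77 of 122 genes were positive and the median log2 difference was 0.061. It was also positive when replicate 3 of Ad-GFP was left out (0.024) and when replicate 4 was (0.013). The share of counts was 1.38, 1.82, 1.88 and 1.62% after Ad-PPARg and 1.74, 1.51, 1.90 and 1.88% after Ad-GFP, with means of 1.68% ± 0.226 and 1.76% ± 0.181 (SD, n = 4 each) that differed by less than the spread between libraries.

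The genes lowest in p in OPC differed little. ENSOCUG00000014857, the OPC-enriched gene above, was at 278.5, 299.7, 299.5 and 300.6 CPM after Ad-PPARg and at 280.5, 240.2, 233.1 and 263.2 CPM after Ad-GFP, a log2 difference of 0.21 (SE 0.12, edgeR adjusted p = 1.00). The lowest treated library lay just below the highest control. ENSOCUG00000024606 (chr12:62698514-62869950, plus strand, 73 entries, 38 merged) was at 69.5, 78.4, 89.9 and 132 CPM against 80.4, 74.3, 74.99 and 77.8 CPM, with overlap (log2 0.26, SE 0.20, edgeR adjusted p = 1.00). Without Ad-PPARg replicate 4, its highest library, this value was 0.039. Lower after Ad-PPARg was ENSOCUG00000023161 (chr5:2456217-2564863, plus strand, 121 separate exons), at 14.7, 18.7, 11.3 and 11.8 CPM against 15.4, 18.9, 21.5 and 16.7 CPM (log2 -0.36, SE 0.21, edgeR adjusted p = 1.00). ENSOCUG00000016966 (chr7:150587285-150821138, plus strand, 64 separate exons) was at 117, 172, 238 and 153 CPM against 211, 151, 260 and 304 CPM (log2 -0.45, SE 0.27, edgeR adjusted p = 1.00). Single libraries moved these as well, to -0.24 in ENSOCUG00000023161 without Ad-PPARg replicate 3 and to -0.27 in ENSOCUG00000016966 without Ad-GFP replicate 4. In all 4 genes the treated and control libraries overlapped.

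The difference between the treatment effects was tested directly, as the effect in OPC minus that in microglia. Of the 129 genes, 0 had an edgeR adjusted p under 0.05 (0% of all 14699 genes), with the lowest at 0.997, and DESeq2 called 0 as well (0.0136% of all genes), as did limma voom with sample weights (0.0272%). At an unadjusted p under 0.05 there were 4 (3.10%, against 2.73% of all genes), 1 of them higher (0.775%, against 1.2%) and 3 lower (2.33%, against 1.53%). The effect was more positive in microglia in 101 of the 129 genes and in OPC in 28 (21.7%, against 48.2% of the genes with fewer entries), with a median log2 difference of effects of -0.27, or -0.30 relative to the expression bin. This comparison uses the same libraries as the 2 treatment comparisons and is not separate evidence.

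The 2 genes lowest in p in this test were ENSOCUG00000023161 and ENSOCUG00000015835. In ENSOCUG00000023161, microglia stood at 322, 208, 253 and 221 CPM after Ad-PPARg and at 155, 146, 165 and 288 CPM after Ad-GFP, a log2 difference of 0.42 (SE 0.23), against -0.36 in OPC. Ad-GFP replicate 4 was above 3 of the 4 treated libraries. The difference of effects was -0.80 (SE 0.29, edgeR adjusted p = 0.997). In ENSOCUG00000015835 the log2 difference was -0.86 in microglia and 0.18 in OPC, where its libraries were at 19.0, 29.8, 23.1 and 45.6 CPM after Ad-PPARg and at 35.0, 23.1, 23.2 and 22.5 CPM after Ad-GFP. The difference of effects was 1.01 (SE 0.37, edgeR adjusted p = 0.997). The other 2 genes at an unadjusted p under 0.05, ENSOCUG00000011683 (-1.28, SE 0.50) and chr8:78764610-78939994 (69 entries, -0.48, SE 0.20), were also more positive in microglia; the last was named after its values were seen.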

How the data were processed

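RNA from microglia and OPC sorted at day 7 was sequenced as paired-end reads, per the labels' protocols. Each library has 1 deposited table of raw read counts per gene, in whole numbers. Tools listed in the submitters' processing notes are bcl2fastq 2.17, Subread 1.5.2 and STAR 2.5.2b, with no role stated. Genome build, annotation release and strand setting were not given in the sources used here. Of the 23669 identifiers, 0 matched the reference table (mOryCun1.1, 38822 genes), so gene names, marker lists and sequences were not used here.

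The rule for the genes, the lists and the tests were chosen with earlier results of these data known. Counts were tested with edgeR 4.0.16 in R 4.3.3 (quasi-likelihood, robust, TMM, default filter, Benjamini-Hochberg over all genes tested at 0.05). The SE is the size of the log2 difference over the square root of F. Treatment was fitted within each cell type, and cell types and the difference of effects over all 16 libraries. DESeq2 1.42.0 and limma 3.58.1 (voom, sample quality weights) were alternatives, beside other scaling, filters, thresholds, bins and libraries left out. An adjusted p that DESeq2 gave as missing was not counted as a call. The fits were tested on simulated data. CPM are TMM-scaled, over 16 libraries for levels and cell types and within a cell type for treatment. For the level of the genes per library, 0.5 CPM was added before the log. Expression matching used 10 equal bins of mean log2 CPM, or 5 by 5 bins with length or span.

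Identifiers are printed for the 2 genes in each direction with the largest called difference between the cell types without overlap, and for the 2 lowest in p in each direction of each treatment comparison. The 2 lowest in p for the difference of effects, the 3 with most exon entries, the 3 highest per kb in each cell type and the 2 nearest to equal were also named, by position unless already given.

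Replicates of a group are different animals by the labels, and the chi-square per gene between 2 libraries of a group was 5.25 to 155, against about 1 for sampling noise, so none was a repeat. The animal identifier pairs the cell types in 6 animals. Correlations of library deviations from group means were -0.024 to 0.25 (median 0.081) within these pairs and -0.44 to 0.42 (median -0.022) between the 58 pairs of different animals, over 14699 genes. By the chi-square per gene, an average, the spread between libraries exceeded sampling noise at totals of 6.24 to 17.6 M counts. Single values of low genes can still rest on few counts, as in ENSOCUG00000006035, with 2 to 57 per OPC library.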

Additional observations from a re-analysis of the deposited data

Results flagged for a closer look

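Dixon's criterion was applied to CPM of each named gene, the share of counts on the 129 genes and their level relative to the expression bin. In 11 of these 88 groups of 4 libraries, 1 library was far from the other 3. Chance gives about 1 in 20 where groups are independent and values spread normally. These groups hold picked genes and share the same 16 libraries, so 11 cannot be read as more than chance gives. Libraries are given beside the range of the other 3. No cause was tested.

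Microglia Ad-PPARg replicate 1 was high in ENSOCUG00000016966, at 16.06 CPM against 0.751 to 3.31, and in the gene with 282 exons (chr7:118225491-118453579), at 422.4 CPM against 123 to 149. This is the library with 3.77% of its counts on short single-exon genes. Microglia Ad-GFP replicate 4 was high in ENSOCUG00000011683, at 25.02 CPM against 14.1 to 15.6, and in ENSOCUG00000023161, at 288.1 CPM against 146 to 165. Microglia Ad-GFP replicate 1 was high in ENSOCUG00000006035, at 28.79 CPM against 17.7 to 19.4.

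In OPC, Ad-PPARg replicate 1 was low in ENSOCUG00000014857, at 278.5 CPM against 299.5 to 300.6. Ad-PPARg replicate 2 was high in ENSOCUG00000006035, at 4.272 CPM against 0.356 to 0.987, and in the gene with 282 exons, at 21.06 CPM against 4.01 to 6.91. Ad-GFP replicate 3 was high in ENSOCUG00000008730, at 19.49 CPM against 9.29 to 10.9, and in the gene with 282 exons, at 19.49 CPM against 4.02 to 5.32. Ad-PPARg replicate 2 and Ad-GFP replicate 3 were high in genes that are strongly higher in microglia, and microglia-enriched genes (821, none of the 129) took up 1.15% of counts in OPC Ad-PPARg replicate 2 and 0.998% in Ad-GFP replicate 3, the 2 highest of the 8 OPC libraries (others 0.561 to 0.849%). Ad-GFP replicate 1 was high in ENSOCUG00000015835, at 35.02 CPM against 22.5 to 23.2.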

How the results depend on the processing

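The counts of 0 in the treatment comparisons and in the difference of effects held with upper-quartile scaling, with no filter on low counts and without each library in turn. In microglia 4 of 119 genes were called with DESeq2 (0.928% of all genes) and 10 with limma voom and sample quality weights (9.9% of all genes). Without each library in turn, 35 to 39 genes were called higher in OPC and 34 to 45 higher in microglia. The shares of all genes called in these fits are not given here, so these ranges do not compare the many-exon genes with others. With each library left out, the median log2 difference between the cell types ran from -0.23 to 0.016, positive without microglia Ad-PPARg replicate 1. Relative to the bin it ran from 0.035 to 0.23. The median treatment difference ran from 0.12 to 0.32 in microglia (0.11 to 0.32 relative to the bin) and from -0.078 to 0.061 in OPC (-0.13 to 0.025 relative to the bin).

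From the Ad-GFP libraries alone the median between cell types was 0.062, and 0.32 relative to the bin, and from the Ad-PPARg libraries alone -0.19 and 0.061. With 50 or more entries (219 genes, 217 tested), 66 were called higher in OPC (30.4%) and 70 in microglia (32.3%), against 35.1% and 33.4% of all genes. With 80 or more (48 genes) these were 12 (25%) and 14 (29.2%), with a median of -0.095 relative to the bin. With 60 or more merged exons (81 genes), 25 were called higher in OPC (30.9%) and 14 in microglia (17.3%). The median of these 81 was 0.0043, and 0.27 relative to the bin. The coarser bins on expression with length and with span both gave -0.16. With the 2 highest genes left out, chosen after seeing the data, the mean shares were 1.35% in microglia Ad-PPARg, 1.17% in microglia Ad-GFP, 1.40% in OPC Ad-PPARg and 1.46% in OPC Ad-GFP.

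With the animal as a replicate block (6 animals), 37 genes were called higher in OPC (28.9%, against 33.6% of all genes) and 42 in microglia (32.8%, against 34.5%), the medians were -0.24 and 0.11 relative to the bin, and 0 were called for the difference of effects (limma voom, random block). The block changed no call of a named gene. The 2 nearly equal genes changed sign: chr13:133680611-133842737 to -0.022 in the block, -0.11 from the Ad-PPARg libraries alone and -0.050 to 0.051 without single libraries, and chr19:11670528-11695252 to -0.029, -0.12 and -0.049 to 0.062. The gene with 173 entries went to 0.14 from the Ad-GFP libraries alone and to -1.49 from the Ad-PPARg libraries alone (edgeR adjusted p = 0.0476), and the cause was not tested. Precision was lowest at low expression, where the median SE of the microglia treatment difference was 0.68 in the second bin, against 0.49 in genes with fewer entries, and the cause was not tested.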
